A study of Arabidopsis thaliana with 8 samples.

Results

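AT1G62510, AT4G22470 and AT5G55450 are 3 Arabidopsis genes annotated to the family of protease inhibitor, seed storage and lipid transfer proteins. They were selected on their large differences between the groups of this experiment, that is, on the same levels given here, so their levels and differences are described without a test. Each of the 3 has 1 probe set of its own, as have 13286 genes in all, among the 22746 probe sets examined on the Affymetrix ATH1 array, a chip that reads most annotated Arabidopsis genes with short probes near the 3′ end of the transcript. RNA came from whole seedlings 2 weeks old, grown in vitro on MS medium and then kept for 24 h in 2 mM salicylic acid (SA) or in water. The 4 groups were npr1-1 under SA, npr1-1 in water, Col-0 under SA and Col-0 in water, with 2 biological replicates each and 8 arrays in all. Col-0 is the wild type, and npr1-1 carries a point mutation in NPR1, a coactivator of transcription that responds to SA. The npr1-1 seedlings are 1 mutant line, and the 2 arrays of a group limit what each mean can show.

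Proteins of this family are small, secreted and rich in cysteines, and share a pattern of 8 cysteines. In the lipid transfer proteins this pattern folds the protein around a cavity that can hold a lipid. The family includes the lipid transfer proteins, the 2S albumins stored in seeds, inhibitors of proteases and amylases known from cereals, and hybrid proline-rich proteins, in which a proline-rich stretch associated with the cell wall precedes the cysteine-rich domain. Some members act in defence against pathogens, and DIR1 and AZI1 are needed in Arabidopsis for systemic acquired resistance, the resistance of distant leaves after a local infection, to which SA also belongs. AT4G22470 is a proline-rich protein with the cysteine-rich domain of the family. AT5G55450 is a lipid transfer protein known from plants that overexpress it and tolerate a trichothecene, a toxin made by Fusarium fungi. AT1G62510 is annotated by its family alone.

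Across probe sets the 2 replicates of a group had r = 0.994 to 0.996, and the array medians were between 1.34 and 1.48 on the log2 scale. Arrays of npr1-1 SA and Col-0 SA were the least alike at r = 0.922 to 0.925, while npr1-1 SA against Col-0 water gave 0.960 to 0.963 and npr1-1 water against Col-0 SA gave 0.957 to 0.959. Close to these, npr1-1 water against Col-0 water gave 0.958 to 0.961. SA against water gave 0.965 to 0.966 in Col-0 and 0.955 to 0.957 by the npr1-1 labels. The SA differences of the 2 genotypes had opposite trends (Pearson r = −0.50, Spearman rho = −0.39, over 22746 probe sets, which are no independent replicates). For this reason each npr1-1 array is called by its label, and each difference within npr1-1, or between npr1-1 and Col-0 in 1 treatment, depends on that label. The values with the npr1-1 SA and npr1-1 water labels exchanged are given beside the results for the 3 genes. Whether the 2 npr1-1 labels are exchanged was not tested, and the comparison of npr1-1 with Col-0 over the 2 treatments does not depend on it. Of the seedling markers, the 3 measured genes of the photosynthetic shoot (LHCB4.1, PSBY and PSAN) averaged 7.73 to 9.35 on the arrays, the 6 root genes averaged 1.34 to 2.18 with only PYK10 bright, and the 2 flower and pollen genes averaged 0.09 to 0.73.

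AT1G62510 (probe set 265111_at, chromosome 1) stood well above the array medians in all 4 groups and was lowest on the arrays labelled npr1-1 water. Its log2 level was 9.46 and 9.63 on the arrays labelled npr1-1 SA, 6.20 and 6.15 on those labelled npr1-1 water, 8.07 and 8.10 on the Col-0 SA arrays and 10.04 and 9.87 on the Col-0 water arrays. No 2 groups overlapped. The level was therefore higher with SA than in water by the npr1-1 labels, whereas in Col-0 it was lower with SA than in water. By the npr1-1 labels it averaged 9.54 ± 0.121 with SA and 6.18 ± 0.0408 in water (SD, n = 2 each), a difference of 3.37 on the log2 scale (standard error 0.123), or 10.3-fold higher and the 7th highest of the 22746 probe sets. In Col-0 it averaged 8.09 ± 0.0171 with SA and 9.96 ± 0.122 in water (SD, n = 2 each), a difference of −1.87 (standard error 0.123), or 3.66-fold lower. The difference between these 2 SA differences, the interaction of genotype and SA, was 5.24 (standard error 0.174). In whole seedlings fewer cells of a type that carries this RNA and less RNA per cell cannot be told apart.

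Against Col-0, AT1G62510 was lower on the npr1-1 arrays in water by a difference of −3.78 (standard error 0.123), or 13.8-fold, and higher under SA by 1.46 (standard error 0.123), or 2.75-fold. Over both treatments together the npr1-1 arrays were lower, with a difference of −1.16 (standard error 0.0869), or 2.24-fold. The highest group was Col-0 water. Next came npr1-1 SA, whose mean lay 0.41 below Col-0 water and whose nearest array lay 0.24 below it. The SDs of these 2 groups were 0.121 and 0.122, and the pooled replicate SD over all 4 groups was 0.0888. The other steps were wider: npr1-1 SA lay 1.46 above Col-0 SA, and npr1-1 water lay 1.91 below Col-0 SA. With the npr1-1 labels exchanged the SA difference in npr1-1 would be −3.37, in the direction of Col-0, and the differences between npr1-1 and Col-0 would be −0.41 in water and −1.91 under SA.

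**Figure D1:**
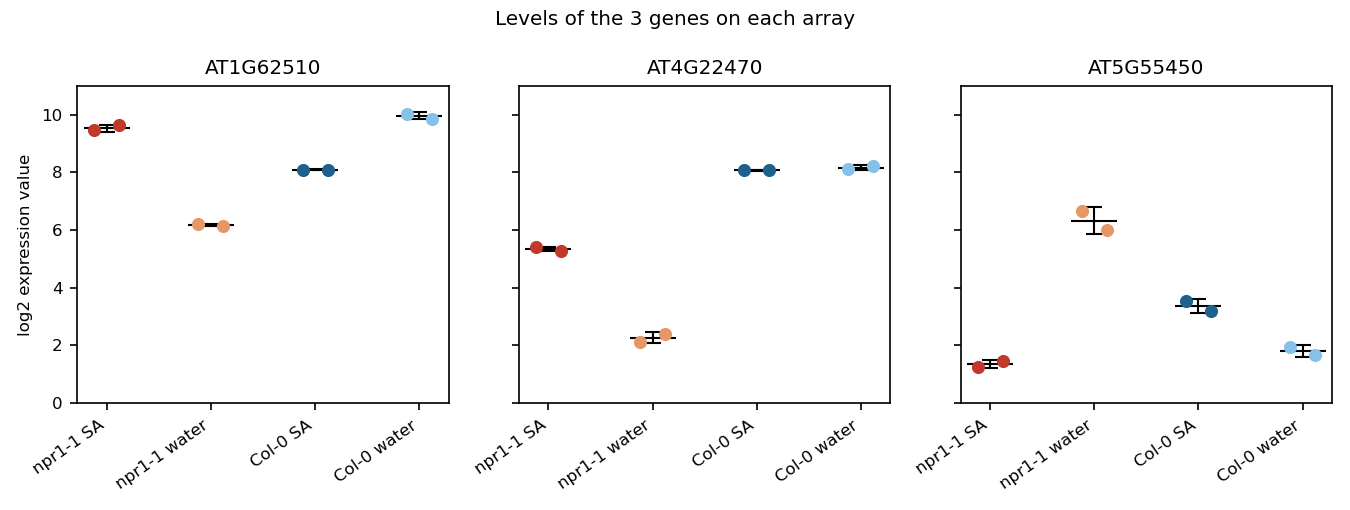
Log2 expression value (vertical axis) of AT1G62510, AT4G22470 and AT5G55450, 1 panel each, in the groups npr1-1 SA, npr1-1 water, Col-0 SA and Col-0 water. Points are single arrays, long bars are means and short bars are ± SD (n = 2). AT4G22470 is at 8.07 to 8.23 on all 4 Col-0 arrays and at 5.40 or less on all 4 npr1-1 arrays, and AT5G55450 is highest on the npr1-1 water arrays, where AT1G62510 is lowest.

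AT4G22470 (probe set 254314_at, chromosome 4), the proline-rich member, was lower on every npr1-1 array than on any Col-0 array and was at like levels with and without SA in Col-0. It read 5.40 and 5.29 on the arrays labelled npr1-1 SA and 2.13 and 2.41 on those labelled npr1-1 water. In Col-0 it read 8.07 and 8.10 with SA and 8.11 and 8.23 in water. The 4 Col-0 arrays lay within a narrow band, and both pairs of npr1-1 arrays lay below it and apart from each other.

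By the npr1-1 labels the means of AT4G22470 were 5.35 ± 0.0756 with SA and 2.27 ± 0.202 in water (SD, n = 2 each), a difference of 3.08 (standard error 0.131), or 8.43-fold higher and the 12th highest of all probe sets. Its SA difference in Col-0 was −0.09 (standard error 0.131), from means of 8.08 ± 0.0196 with SA and 8.17 ± 0.0877 in water (SD, n = 2 each). The nearest arrays of these 2 groups were 0.01 apart, and the difference was smaller than its standard error. The pooled SD of 0.117 is over all 4 groups, of which npr1-1 water, at 0.202, was the widest, and is larger than the SD of either Col-0 group. The interaction was 3.16 (standard error 0.185). Set against Col-0, the npr1-1 arrays were lower by 59.5-fold in water, where the difference of −5.90 (standard error 0.131) was the lowest of all 22746 probe sets. Under SA they were lower by 6.65-fold, with a difference of −2.73 (standard error 0.131). The npr1-1 water level stood at the 60.2 percentile of the probe sets. As detection was not used, each fold set against it, such as 59.5 and 8.43, is a lower bound if that level is background. The difference over both treatments was −4.32 (standard error 0.0925), or 19.9-fold lower, and was the 2nd lowest of all probe sets. With the npr1-1 labels exchanged the SA difference in npr1-1 would be −3.08, and npr1-1 would still be lower than Col-0, with differences of −2.82 in water (7.06-fold, the 77th lowest of all probe sets) and −5.81 under SA (56.1-fold, the 2nd lowest).

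AT5G55450 (probe set 248062_at, chromosome 5), the lipid transfer protein, was dim in 2 groups and highest on the arrays labelled npr1-1 water. It read 1.26 and 1.44 on the arrays labelled npr1-1 SA, near the median of those arrays, and 6.67 and 5.99 on the arrays labelled npr1-1 water. In Col-0 it read 3.54 and 3.20 with SA and 1.95 and 1.65 in water. The 4 groups did not overlap, and npr1-1 water held both the highest values and the widest spread.

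By the npr1-1 labels AT5G55450 was lower with SA, at 1.35 ± 0.130, than in water, at 6.33 ± 0.479 (SD, n = 2 each). That difference was −4.99 (standard error 0.207). Its dimmer level stood at the 48.2 percentile of the probe sets, and as detection was not used here its 31.7-fold is a lower bound if that level is background. In Col-0 it was higher with SA, at 3.37 ± 0.237, than in water, at 1.80 ± 0.210 (SD, n = 2 each), a difference of 1.57 (standard error 0.207), or 2.96-fold. The interaction was −6.55 (standard error 0.293). Its direction was thus opposite to that of AT1G62510 in both genotypes, under either order of the npr1-1 labels. In water the npr1-1 arrays were higher than Col-0 by 4.53 (standard error 0.207), or 23.1-fold, with the same limit, since Col-0 water stood at the 55.6 percentile. Under SA they were lower, with a difference of −2.02 (standard error 0.207), or 4.06-fold, again with npr1-1 SA as the dimmer level. The 2.96-fold in Col-0 has the same limit, from Col-0 water. Over both treatments the npr1-1 arrays were higher by 1.25 (standard error 0.147), or 2.39-fold. In the order of levels npr1-1 water lay 2.96 above Col-0 SA, and Col-0 SA lay 1.57 above Col-0 water. Lowest was npr1-1 SA, 0.46 below Col-0 water. The nearest arrays of these last 2 groups were 0.21 apart, where their SDs were 0.130 and 0.210. The pooled SD of 0.295 is over all 4 groups, of which npr1-1 water, at 0.479, was the widest. With the npr1-1 labels exchanged the SA difference in npr1-1 would be 4.99, in the direction of Col-0, and the differences between npr1-1 and Col-0 would be −0.46 in water and 2.96 under SA.

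**Figure D2:**
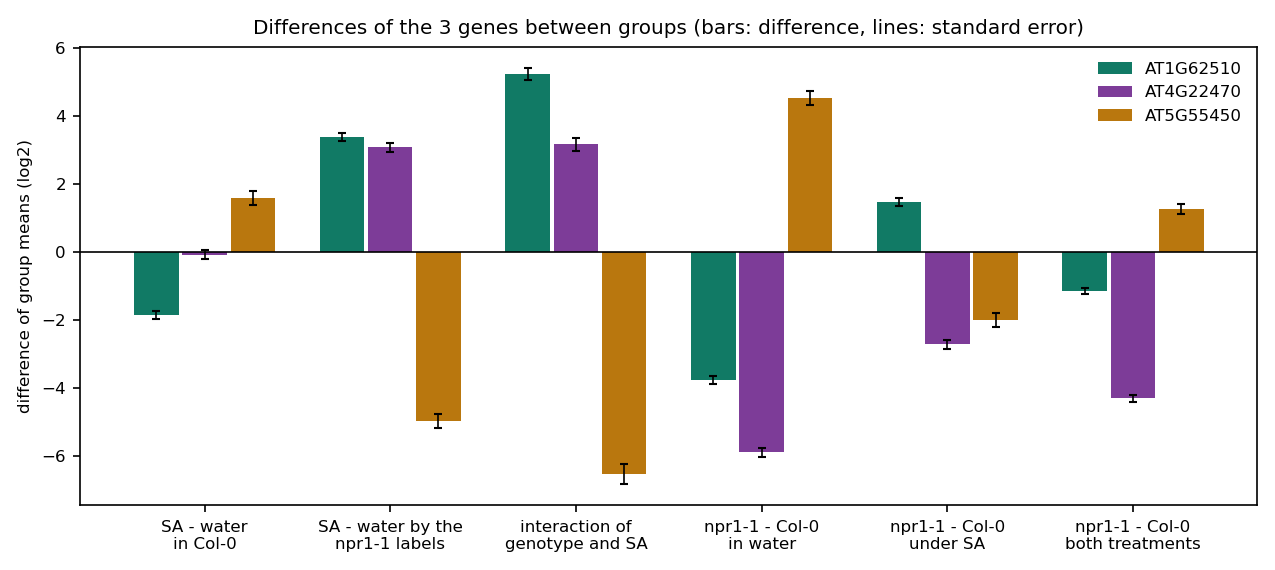
Differences of group means (log2, vertical axis) of the 3 genes in the 6 comparisons, with lines for the standard error of the fit. The bars of AT1G62510 and AT5G55450 point in opposite directions in all 6 comparisons as labelled, and AT4G22470 is near 0 for SA in Col-0 and below 0 in each comparison of npr1-1 with Col-0.

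The group means of AT1G62510 spanned 3.78, those of AT4G22470 5.90 and those of AT5G55450 4.99, the 123rd, 19th and 33rd widest of the 22746 probe sets. Over the 8 arrays, which fall into 4 pairs of replicates, AT1G62510 and AT5G55450 ran against each other at Pearson r = −0.97. AT1G62510 and AT4G22470 had r = 0.72, and AT4G22470 and AT5G55450 had r = −0.70. All 3 genes thus shared a large step between the 2 npr1-1 labels, and AT4G22470 stood apart from the other two in Col-0, where its level was alike with and without SA.

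Other values moved with these groups. The mean of the 3 photosynthetic genes was 9.23 to 9.35 on the npr1-1 SA arrays, 8.53 to 8.56 on npr1-1 water, 7.73 to 7.75 on Col-0 SA and 8.96 to 9.04 on Col-0 water. The mean of the 6 root genes was 1.84 to 1.98 on npr1-1 SA, 1.40 on both npr1-1 water arrays, 1.34 to 1.5 on Col-0 SA and 2.06 to 2.18 on Col-0 water. Both sets were, like AT1G62510, higher with SA by the npr1-1 labels and lower with SA in Col-0. By the npr1-1 labels 3 of 3 and 2 of 6 genes were called higher, against 14.8% of all probe sets. In Col-0 3 of 3 and 2 of 6 were called lower, against 13.4% of all probe sets. The 2 root genes called were PYK10 and AT5G17820 each time. Only 3 of 14 listed photosynthetic genes and 6 of 15 listed root genes were measured. The controls for the ends of transcripts, read as the 3′ minus the 5′ value on the log2 scale, were 5.01 for actin on npr1-1 SA, 5.08 on npr1-1 water, 5.0 on Col-0 SA and 3.66 on Col-0 water. For GAPDH they were 1.14, 1.07, 1.17 and 0.63 in the same order of groups, and for ubiquitin 1.64, 0.96, 1.46 and 1.03. The part of tissue makeup and of RNA quality in the differences of the 3 genes was not tested.

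The genes most like each of the 3 were sought by Pearson r over the 8 arrays among 2724 other genes whose group means spanned at least 1 on the log2 scale. These r values describe 8 arrays in 4 groups and carry no test. For AT1G62510, 21 genes had r over 0.95, and the 3 highest were AT5G56100 (r = 0.993), AT2G23110 (r = 0.991) and CCL (r = 0.988), whose transcript is known for its short life and its daily rhythm. AT5G56100 averaged 7.14 on npr1-1 SA, 4.65 on npr1-1 water, 5.92 on Col-0 SA and 7.21 on Col-0 water, a pattern of smaller span (2.56) than that of AT1G62510. AT4G22470 had 64 genes over 0.95. The 3 highest were AT2G36690 (r = 0.998), an oxygenase of the 2-oxoglutarate type, AT1G17860 (r = 0.997), an inhibitor of the Kunitz type, and AT2G44380 (r = 0.996), a protein with cysteine- and histidine-rich C1 domains. AT2G36690 averaged 3.71 on npr1-1 SA, 2.13 on npr1-1 water, 5.25 on Col-0 SA and 5.11 on Col-0 water. AT1G17860 had a span of only 1.17. AT5G55450 had 63 genes over 0.95, led by FIP2 (r = 0.994), AT5G27830 (r = 0.992) and AT5G44400 (r = 0.990), an oxidase of the berberine bridge enzyme type. AT5G44400 averaged 2.06 on npr1-1 SA, 5.08 on npr1-1 water, 3.23 on Col-0 SA and 2.11 on Col-0 water.

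**Figure D3:**
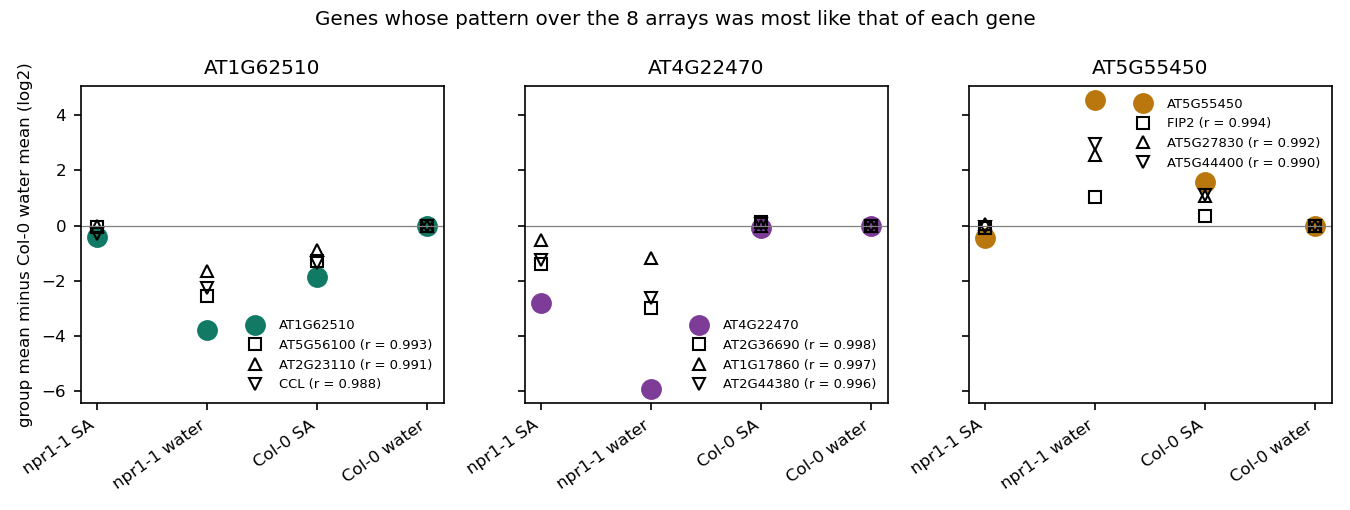
Group means relative to Col-0 water (log2, vertical axis) of each of the 3 genes (filled circles) and of the 3 genes with the highest r to it (open symbols). Each like gene has a smaller span than the gene it was matched to, between 1.14 for FIP2 and 3.12 for AT2G36690.

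The measured genes nearest the 3 on the chromosomes were compared by their order in the RefSeq annotation, 3 on each side. Many do not adjoin the gene, since genes without a probe set of their own lie between, such as 13 between AT1G62510 and AT1G62660. For the 6 neighbours of AT1G62510, 1 was called higher and 1 lower at an adjusted p under 0.05 for SA in Col-0, where 23.5% of all probe sets were called. AT1G62500, the adjoining gene and itself a proline-rich member of the family, averaged 1.89 on npr1-1 SA, 0.84 on npr1-1 water, 0.37 on Col-0 SA and 1.08 on Col-0 water. Its SA difference was 1.05 by the npr1-1 labels (adjusted p = 5.16e-04) and −0.70 in Col-0 (adjusted p = 0.00885), the same directions as AT1G62510, at r = 0.50 over the 8 arrays. In water AT1G62500 was at −0.24 in npr1-1 against Col-0 (adjusted p = 0.365), where AT1G62510 was at −3.78. Of the 6 neighbours of AT4G22470, 1 was called higher and 1 lower for SA in Col-0, and 2 of them are proline-rich members of the family. AT4G22460 was lower in npr1-1 than in Col-0 in water, with a difference of −0.98 (adjusted p = 0.00216), and under SA, with −0.66 (adjusted p = 0.0156), with SA differences of 0.22 by the npr1-1 labels and −0.11 in Col-0 that did not pass the test. It averaged 0.6 on npr1-1 SA, 0.38 on npr1-1 water, 1.25 on Col-0 SA and 1.36 on Col-0 water. These levels are near or below the array medians, where there is little signal over background. AT4G22490 was lower with SA by the npr1-1 labels, at −1.17 (adjusted p = 3.87e-05), and in Col-0, at −0.77 (adjusted p = 0.00105). Of the 6 neighbours of AT5G55450, 0 were called for either SA difference, where 28.2% of all probe sets were called within npr1-1 and 23.5% within Col-0, and 1 was called between the genotypes under SA, where 39.3% were.

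Lists of other genes of the family held 113 genes, of which 46 had a probe set of their own. LTP1, LTP2, DIR1, AZI1, EARLI1 and the 5 seed 2S albumins were not analysed here. With SA in Col-0, 1 of the 46 rose and 12 fell (28.3% called, against 23.5% of all probe sets, of which 10.1% were higher and 13.4% lower). The median difference of the 46 was −0.04, against 0.02 over all probe sets. Without replicate 1 of Col-0 SA, 8 fell and 0 rose. All 13 calls were among the 20 brighter genes, while the other 26 had a mean under 1 over the arrays. The 20 had a median difference of −0.66. No share or median over all probe sets of like brightness was computed, so the values of the 20 have no background here.

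The largest falls with SA in Col-0 were those of AT2G10940, a proline-rich protein, with a difference of −2.97 (standard error 0.127, adjusted p = 3.46e-08), and of AT4G22610, with −2.95 (standard error 0.194, adjusted p = 9.31e-07). AT2G10940 averaged 2.89 ± 0.0309 with SA and 5.86 ± 0.119 in water (SD, n = 2 each). AT5G48490, known as DIR1-LIKE and close in sequence to DIR1, averaged 3.43 ± 0.161 with SA and 5.55 ± 0.00523 in water (SD, n = 2 each), a difference of −2.11 (adjusted p = 1.06e-06). AT5G01870, a lipid transfer protein of type 1, differed by −1.83 (adjusted p = 2.72e-05). The single gene that rose was AT3G18280, a small lipid transfer protein, at 0.43 (adjusted p = 0.0372), and it was not called when the Col-0 arrays were fitted alone, where 0 rose and 11 fell.

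By the npr1-1 labels 10 of the 46 genes were higher with SA and 5 lower (32.6% called, against 28.2% of all probe sets, with 14.8% higher and 13.4% lower). The median difference was 0.02, against 0.00 over all probe sets. AT5G48490 was at 6.41 ± 0.00503 on npr1-1 SA and 3.86 ± 0.250 on npr1-1 water (SD, n = 2 each), a difference of 2.55 (adjusted p = 1.61e-07). AT3G22620, a lipid transfer protein with a GPI anchor, AT2G10940 and AT5G01870 were higher by 1.59, 1.55 and 1.45 (adjusted p at most 1.31e-04). The largest falls by these labels were those of AT3G18280, with −1.31 (adjusted p = 1.93e-05), AT4G22490, with −1.17, AT3G58550, with −1.0 (adjusted p = 1.14e-04), and AT2G44300, with −0.93 (adjusted p = 0.00465). AT3G58550 was dim, at 0.2 on npr1-1 SA, 1.21 on npr1-1 water, 0.62 on Col-0 SA and 0.66 on Col-0 water, all below the array medians. Of these 8 genes 5 were also called for SA in Col-0: AT5G48490, AT2G10940, AT5G01870 and AT3G18280 in the opposite direction and AT4G22490 in the same direction.

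Of the 46 genes, 11 were called in both genotypes, and for 10 of the 11 (90.9%) the 2 SA differences had opposite signs. Over all probe sets 3231 were called in both and 2756 of these had opposite signs (85.3%), so the share in the family was near that of the array as a whole. With the npr1-1 labels exchanged the signs would be opposite for 1 of the 11 (9.09%) and for 475 of the 3231 (14.7%). Of the 10, 9 were higher with SA by the npr1-1 labels and lower in Col-0, as AT1G62510 was, and 1, AT3G18280, ran the other way, as AT5G55450 did. Over all probe sets 1630 of the 2756 were higher by the npr1-1 labels and lower in Col-0, and 1126 ran the other way. AT3G18280 averaged 4.73 on npr1-1 SA, 6.04 on npr1-1 water, 5.37 on Col-0 SA and 4.94 on Col-0 water, and followed AT5G55450 at r = 0.98 and AT1G62510 at r = −0.96 over the 8 arrays. AT4G22490 alone had the same sign in both, and its interaction was −0.40 (adjusted p = 0.137). The interaction of genotype and SA was called for 15 of the 46 (32.6%), 11 higher and 4 lower, against 32.0% of all probe sets. With the labels exchanged it would be called for 7 of the 46, and no share of all probe sets is given for that setting. As labelled, its highest values were 4.66 for AT5G48490 (adjusted p = 1.56e-08), 4.52 for AT2G10940 (adjusted p = 8.58e-09), 3.82 for AT4G22610 (adjusted p = 7.79e-07) and 3.28 for AT5G01870 (adjusted p = 2.25e-06).

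**Figure D4:**
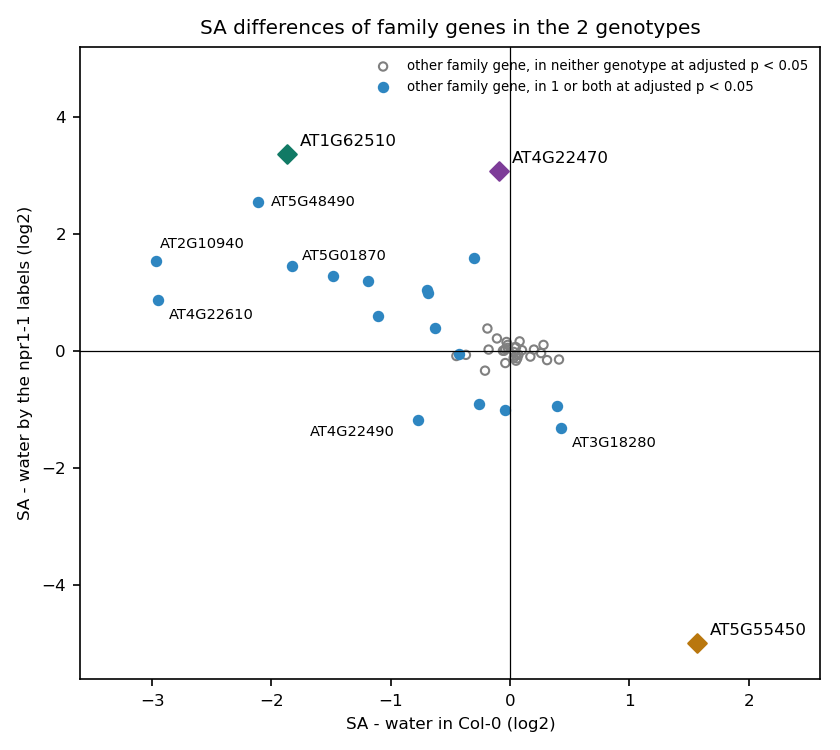
SA minus water in Col-0 (horizontal axis, log2) and SA minus water by the npr1-1 labels (vertical axis, log2) for the 3 genes (diamonds) and the other 46 family genes (circles, filled where called in 1 or both genotypes). AT1G62510 lies in the upper left with AT5G48490 and AT2G10940, AT4G22470 lies on the vertical axis line at 3.08, and AT5G55450 lies in the lower right.

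The types of family proteins are set against the 28.2% of all probe sets called by the npr1-1 labels and the 23.5% called in Col-0, with few members measured in each. Genes were placed in these types from background knowledge, with no domain annotation used here. Among the hybrid proline-rich proteins 9 of 26 were measured, and by the npr1-1 labels 3 were higher with SA and 1 lower (44.4% called), while in Col-0 5 fell and 0 rose (55.6% called). Of DIR1 and other small lipid transfer proteins 13 of 30 were measured, with 3 higher and 1 lower by the npr1-1 labels and 1 higher and 3 lower in Col-0 (30.8% called in each). The 3 that were higher by the labels and fell in Col-0 were AT5G48490, AT5G05960 (1.29 by the labels and −1.48 in Col-0) and AT1G48750 (1.21 and −1.19). Of the lipid transfer proteins with a GPI anchor 17 of 35 were measured, with 3 higher and 2 lower by the npr1-1 labels (29.4% called) and 3 lower in Col-0 (17.6% called). Of the lipid transfer proteins of type 1 only 4 of 13 were measured, with 1 higher and 1 lower by the npr1-1 labels (50% called) and 1 lower in Col-0 (25% called). The 3 anther proteins measured, a check for tissue that seedlings lack, had differences of 0.28 or less in size in all 6 comparisons, and 0 were called.

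Between the genotypes in water, 4 of the 46 genes were higher in npr1-1 and 11 lower (32.6% called, against 27.0% of all probe sets, with 14.2% higher and 12.7% lower). The largest fall was that of AT4G22610, at 0.93 ± 0.411 in npr1-1 and 4.11 ± 0.279 in Col-0 (SD, n = 2 each), a difference of −3.19 (adjusted p = 3.43e-07). Under SA 11 were higher and 9 lower (43.5%, against 39.3% of all probe sets, with 20.9% higher and 18.4% lower). Once every array was centred on its median the family counts were again 11 and 9, against 17.6% higher and 25.9% lower of all probe sets. AT2G10940 was at 6.50 ± 0.0533 in npr1-1 under SA and 2.89 ± 0.0309 in Col-0 under SA (SD, n = 2 each), a difference of 3.62. AT5G48490 was higher by 2.98 (adjusted p = 2.49e-08). Over both treatments together 8 were higher and 9 lower (37.0%, against 37.8% of all probe sets, with 21.3% higher and 16.5% lower). After median centring 7 were higher and 11 lower, against 17.1% higher and 23.3% lower of all probe sets. AT4G12490 (AZI3) and AT4G12500, both proline-rich and close to AZI1 in sequence, were lower in npr1-1 than in Col-0 in water, with differences of −1.37 (adjusted p = 6.14e-06) and −1.75 (adjusted p = 5.98e-05), and under SA, with −0.98 and −1.44. Their r to AT4G22470 over the 8 arrays was 0.85 and 0.84, and that of AT4G22460, dim in all 4 groups, was 0.88. The other measured proline-rich members did not follow AT4G22470 in this way. AT4G12530 had r = 0.25 and AT1G62500 had −0.2. AT2G10940, AT1G12100, AT2G45180 and AT4G22490 had −0.25, −0.32, −0.43 and −0.62.

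The span of group means reached 1 or more in 15 of the 46 genes (32.6%), against 20.5% of all genes with a probe set of their own. The widest were AT2G10940 (3.62), AT4G22610 (3.19) and AT5G48490 (2.98), each narrower than the 3.78 of AT1G62510. Since the 3 genes were chosen for their differences, that order is a description.

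**Figure D5:**
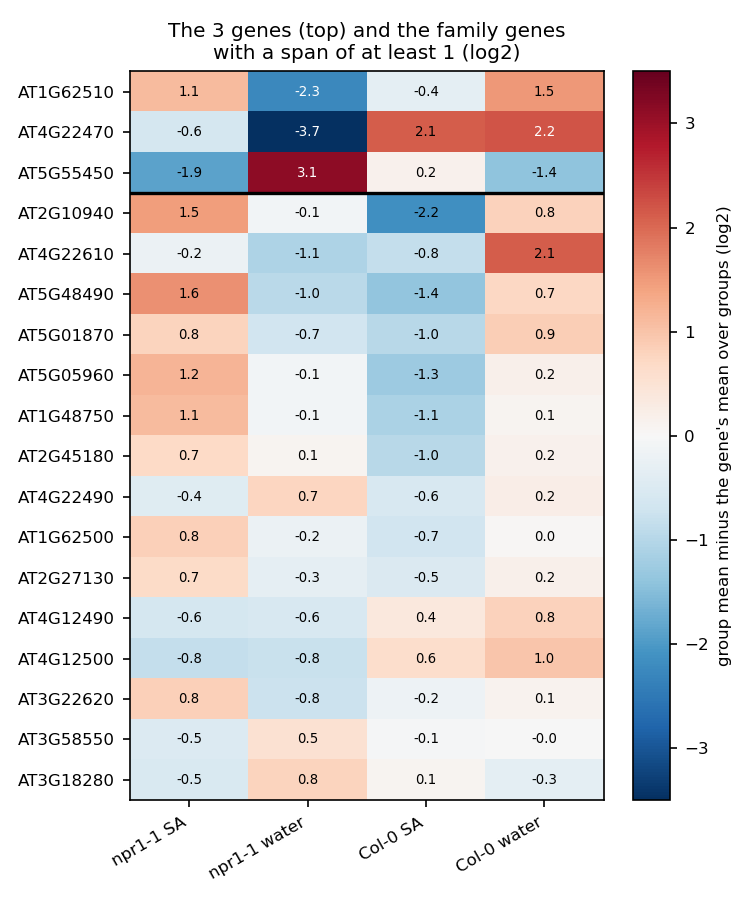
Group mean minus the mean over the groups (log2, colour and printed value) for the 3 genes (top) and the 15 other family genes with a span of at least 1, in the groups npr1-1 SA, npr1-1 water, Col-0 SA and Col-0 water. AT3G18280 (last line) has its highest value on npr1-1 water, as AT5G55450 has, and AT2G10940 and AT5G48490 have theirs on npr1-1 SA.

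Protease inhibitors of other families gave no single direction. Of 27 listed 13 were measured, of which 3 were higher with SA and 4 lower by the npr1-1 labels (53.8% called, against 28.2% of all probe sets), while 2 rose and 3 fell in Col-0 (38.5% called, against 23.5%). AT2G38870, an inhibitor of serine proteases of the PR-6 type, was higher with SA in both, at 0.88 under the npr1-1 labels (adjusted p = 2.01e-04) and at 0.49 in Col-0 (adjusted p = 0.0118), and lower in npr1-1 than in Col-0, with differences of −1.65 in water and −1.27 under SA. AT1G17860, the Kunitz inhibitor that was most like AT4G22470 after AT2G36690, averaged 7.36 ± 0.0188 on npr1-1 SA, 6.71 ± 0.0913 on npr1-1 water, 7.87 ± 0.000926 on Col-0 SA and 7.88 ± 0.0482 on Col-0 water (SD, n = 2 each). Its SA difference was 0.64 by the npr1-1 labels (adjusted p = 0.00116) and −0.01 in Col-0 (adjusted p = 0.973), and npr1-1 was lower than Col-0, with differences of −1.17 in water (adjusted p = 1.58e-05) and −0.51 under SA (adjusted p = 0.00341).

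Of the 3 cystatins measured, which inhibit cysteine proteases, AT5G47550 and CYS1 were, like AT5G55450, lower with SA by the npr1-1 labels and higher in npr1-1 than in Col-0 in water. AT5G47550 was at −0.80 by the npr1-1 labels (adjusted p = 7.12e-04), rose with SA in Col-0 by 0.50 (adjusted p = 0.017), and was higher in npr1-1 than in Col-0 by 2.06 in water and by 0.77 under SA. CYS1 (AT5G12140) was at −0.64 by the npr1-1 labels (adjusted p = 0.00666), at 0.16 in Col-0 (adjusted p = 0.527) and at 1.49 between the genotypes in water, while AT5G05110 was at 0.35 by the npr1-1 labels and −1.28 between the genotypes in water. SERPIN1 (AT1G47710), an inhibitor that traps serine and cysteine proteases, was lower by the npr1-1 labels at −0.49 (adjusted p = 0.0212). Of the trypsin inhibitor genes of the mustard type, AT2G43550 was higher by the npr1-1 labels by 0.85 and fell in Col-0 by 1.16 (adjusted p = 2.4e-04), AT2G43530 was lower in both, with −1.36 by the labels and −0.94 in Col-0 (adjusted p = 0.015), and AT2G43535 fell in Col-0 by 0.65 (adjusted p = 0.0228).

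Of 8 listed partners of lipid signalling in systemic acquired resistance 1 was measured. AT5G52810 (SARD4), an enzyme of the synthesis of pipecolic acid, a signal of systemic resistance, averaged 0.68 ± 0.0588 on npr1-1 SA, 5.06 ± 0.0484 on npr1-1 water, 3.71 ± 0.193 on Col-0 SA and 3.05 ± 0.163 on Col-0 water (SD, n = 2 each). It was lower with SA by the npr1-1 labels, with a difference of −4.38 (adjusted p = 1.92e-09), and rose in Col-0 by 0.66 (adjusted p = 0.00372), the directions that AT5G55450 had.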

How the data were processed

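The authors deposited log2 expression values, 1 for each probe set on each array, which they had background corrected, normalized over the arrays and summarized over probes. GCOS and RMA in affylmGUI stand in the methods, whereas Affymetrix Expression Console stands in the submitters' processing notes, and versions are not given in the sources used here. Values ran from −0.14 to 11.53. Detection calls were not used, and precision is limited by the number of arrays. Of 22810 probe sets 64 controls were left out of the tests. GEO's platform annotation paired 13513 of the 22746 remaining probe sets with 1 gene symbol, 503 with several and 8730 with none, and 77 of the first had no current locus in RefSeq. For a gene with several probe sets the brightest was used. NPR1 and PR1 were not analysed here.

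Samples were grouped by their labels, which call the replicates biological without giving separate cultures, so p-values measure the spread between these arrays. The 4 group means were fitted to all 8 arrays with limma 3.58.1 in R 4.3.3 (lmFit, contrasts.fit and eBayes, two-sided), with Benjamini-Hochberg adjustment over the 22746 probe sets and a threshold of 0.05. The steps were tested on simulated data. Pooled SD is over the 4 groups. The 3 genes and all lists were chosen with earlier results of these data known, so no list is independent evidence. Named were, of the family lists, the other protease inhibitors and the systemic resistance partners, the 4 largest rises and 4 largest falls called with SA in each genotype, then AT1G62500, the 3 genes most like each of the 3, and fixed defence members where measured. Chosen after values were seen were AT4G22460, AT4G12490, AT4G12500, AT5G05960, AT1G48750, AT5G05110 and the other neighbours, the comparison over both treatments, the fit of the Col-0 arrays alone and the exchange of the npr1-1 labels. Alternatives were a replicate block, quantile normalization, median centring, leaving out the dimmest 25% of probe sets, trended and robust variance, no moderation, every probe set of a family gene, and leaving out each array.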

Additional observations from a re-analysis of the deposited data

Results flagged for a closer look

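The SA difference differed between the 2 genotypes for many of the genes named above, and it is given here as npr1-1 minus Col-0 on the log2 scale. For AT1G62510 it differed by 5.24, for AT4G22470 by 3.16 and for AT5G55450 by −6.55, and since these 3 genes were chosen on these arrays the difference was not tested. In AT4G22470 both SA arrays lay below both water arrays in Col-0 by as little as 0.01, which is within the replicate spread. For the other genes given here the interaction passed the test with limma, as it did for 32.0% of all probe sets. In the family it was 4.66 for AT5G48490, 4.52 for AT2G10940, 3.82 for AT4G22610, 3.28 for AT5G01870, 2.77 for AT5G05960, 2.40 for AT1G48750, 1.89 for AT3G22620 and 1.75 for AT1G62500, and −1.74 for AT3G18280, −1.32 for AT2G44300 and −0.96 for AT3G58550. Among other protease inhibitors it was 2.01 for AT2G43550, 0.65 for AT1G17860, 0.61 for AT5G05110, −1.29 for AT5G47550, −0.80 for AT5G12140 and −0.76 for AT1G47710. For AT5G52810 it was −5.04. Among the tissue markers it was 4.24 for PYK10, 2.32 for PSAN, 1.91 for LHCB4.1, 1.82 for AT5G17820 and 1.80 for PSBY. Apart from AT1G17860, the genes picked for their likeness to the 3 genes are left out here, since that choice carries their pattern. These directions rest on the npr1-1 labels. Groups of 2 arrays were not searched for single arrays that stand apart.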

How the results depend on the processing

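Values that moved are given here, and, apart from exchanged labels, no difference of the 3 genes above the replicate spread changed direction under any alternative run. Counts of called family genes under the alternatives, here and above, stand without the share of all probe sets under the same setting, except for median centring. A change in such a count is therefore no result about the family. With the npr1-1 SA and water labels exchanged, a choice made after the data were seen, AT1G62510 was at −3.37 for SA in npr1-1, −1.5 for the interaction, −0.41 between the genotypes in water and −1.91 under SA. AT4G22470 was at −3.08, −2.99, −2.82 and −5.81 in that order and AT5G55450 at 4.99, 3.42, −0.46 and 2.96. The interaction was then called for 7 family genes, and the counts were 15 for SA in npr1-1, 18 in water and 14 under SA. With quantile normalization AT1G62510 was at −1.74 for SA in Col-0, 5.13 for the interaction and −3.69 between the genotypes in water. With each array centred on its median it was at 1.33 between the genotypes under SA and −1.25 over both treatments, and AT4G22470 was at −2.86 under SA. This centring put the median of all probe sets under SA at −0.15, against −0.02 without it. Without moderation of the variance, 8 family genes were called for SA in Col-0, 12 between the genotypes under SA and 11 over both treatments. That fit also called fewer genes between the genotypes in water, at 10, and for SA within npr1-1 as labelled, at 10 (6 higher, 4 lower). The interaction was called for 14. With moderation each of these last counts was 15. Leaving out each array in turn, where the lone array left in a group is assumed to vary like the others, gave 8 to 15 family genes for SA in Col-0, 14 to 16 by the npr1-1 labels, 14 to 17 for the interaction, 11 to 15 in water, 15 to 20 under SA and 14 to 17 over both treatments. It gave AT1G62510 −1.96 to −1.78 for SA in Col-0, 3.28 to 3.45 by the npr1-1 labels, 5.15 to 5.33 for the interaction, −3.87 to −3.70 in water, 1.37 to 1.54 under SA and −1.21 to −1.12 over both. AT4G22470 gave −0.15 to −0.02, 2.93 to 3.22, 3.02 to 3.30, −6.04 to −5.75, −2.79 to −2.68 and −4.39 to −4.24 in that order, and AT5G55450 gave 1.40 to 1.73, −5.32 to −4.65, −6.89 to −6.21, 4.19 to 4.87, −2.19 to −1.85 and 1.09 to 1.42. Same-numbered arrays did not deviate together (r between −0.19 and 0.08 over 6 pairs of groups). With 2 arrays a group this cannot show whether same-numbered arrays were grown or processed together. With the replicate block the family counts were 13 for SA in Col-0, 16 by the npr1-1 labels, 15 for the interaction, 15 in water, 20 under SA and 17 over both. Genes near the array medians have little signal over background, and 2 arrays a group limit every value.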
